A study of Homo sapiens with 4 samples.

Results

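The 71 protein-coding genes of the clustered replication-dependent histone family were followed in human 769-P cells, a line derived from a renal clear cell carcinoma. They were taken from the 58735 genes of the deposited tables as every gene with the biotype protein_coding and a symbol starting with HIST1H, HIST2H, HIST3H or HIST4H. The HIST1 genes lie on chromosome 6 and number 55, the 12 HIST2 and 3 HIST3 genes lie on chromosome 1, and HIST4H4 alone lies on chromosome 12. By the protein they encode, 6 are H1, 17 are H2A, 18 are H2B, 15 are H3 and 15 are H4 genes.

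All 4 libraries came from wild type 769-P cells with a stable, inducible short hairpin against USP35, a deubiquitylating enzyme, grown under puromycin. Untreated cells gave 2 control libraries, and cells kept for 4 days in doxycycline at 1 µg/ml, which switches the hairpin on, gave 2 doxycycline libraries. The design asked how gene expression differs after induced USP35 knockdown. Whether replicates were separate cultures is not in the labels, so the p-values reflect the spread of these libraries alone, and that spread may be technical. No library with doxycycline but without the hairpin was analysed here, so the effects of the drug and of the hairpin cannot be told apart. The labels name 1 hairpin (sh2) and do not say whether the cells were 1 clone.

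Replication-dependent histone genes supply the core histones H2A, H2B, H3 and H4, which form the nucleosome, and the linker histone H1, which binds the DNA between nucleosomes. They are transcribed mainly in S phase, when new DNA must be packaged. Their mature messages usually end just after a short stem-loop in place of a poly(A) tail, and that stem-loop is bound by SLBP, which controls processing, translation and decay. Some of these genes also give longer polyadenylated transcripts, among others in cells that have left the cell cycle.

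The histone stem-loop consensus, 16 letters long, was searched in the GENCODE 29 transcripts of the members and was found in 31 of the 71, in 5 forms. It is shown for the 4 of the 7 most abundant members whose transcript models reach it. Where a model ends relative to it decides which bases of a transcript can be counted. Capitals mark the stem-loop, with 5 bases on each side, 5′ to 3′ on the gene's strand, GRCh38.
HIST1H2AC, chr6:26124664-26124689, plus strand: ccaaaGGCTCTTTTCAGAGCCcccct
HIST1H2BD, chr6:26158582-26158607, plus strand: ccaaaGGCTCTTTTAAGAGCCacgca
HIST1H4I, chr6:27139649-27139674, plus strand: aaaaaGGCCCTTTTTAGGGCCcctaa
HIST2H2BE, chr1:149886183-149886208, minus strand: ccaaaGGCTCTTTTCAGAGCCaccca

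The HIST1H2AC and HIST2H2BE stem-loops have the same letters, a form found in 17 members. The form of HIST1H2BD is found in 5 members, and that of HIST1H4I in 3 members, all H4 genes. The HIST1H2AC transcript goes on for 1128 bases after the stem-loop, that of HIST2H2BE for 1729 and that of HIST1H4I for 212. In HIST1H2BD it goes on for 39 bases, and both HIST1H2BD and HIST1H2AC have 1 other annotated transcript that lacks the stem-loop. The models of HIST1H2BK, HIST1H1C and HIST2H2AC hold the coding frame only, so reads beyond the stop codon could not be counted for them.

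Promoters of 62 members were matched in RefSeq's table (GRCh38.p14), and 4 are shown because they carry the elements by which the histone classes differed. Each is the 250 bases before the RefSeq start site, 5′ to 3′ on the gene's strand. Capitals mark TATAAA (the TATA box), ATTTGCA (the first letters of the octamer element), CCAAT and GGTCCG (the core of site II in H4 promoters), searched on both strands, with neighbouring or overlapping matches run together.
HIST1H2AC, chr6:26123922-26124171, plus strand: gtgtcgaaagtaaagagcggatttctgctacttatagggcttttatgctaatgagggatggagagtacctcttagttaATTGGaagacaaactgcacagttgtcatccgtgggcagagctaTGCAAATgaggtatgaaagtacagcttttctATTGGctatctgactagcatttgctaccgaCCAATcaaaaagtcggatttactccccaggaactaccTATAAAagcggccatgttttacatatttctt
HIST1H2BK, chr6:27146859-27147108, minus strand: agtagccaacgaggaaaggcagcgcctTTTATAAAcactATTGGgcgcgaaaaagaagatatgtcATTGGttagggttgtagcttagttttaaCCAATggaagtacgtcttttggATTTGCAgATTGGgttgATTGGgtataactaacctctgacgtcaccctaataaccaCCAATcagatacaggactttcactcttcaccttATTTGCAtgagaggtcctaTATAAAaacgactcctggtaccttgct
HIST2H2AC, chr1:149886668-149886917, plus strand: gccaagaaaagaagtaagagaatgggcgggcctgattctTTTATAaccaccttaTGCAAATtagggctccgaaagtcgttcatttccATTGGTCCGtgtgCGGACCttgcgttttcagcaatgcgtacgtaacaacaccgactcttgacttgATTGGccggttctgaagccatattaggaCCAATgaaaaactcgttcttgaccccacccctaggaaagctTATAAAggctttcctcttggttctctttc
HIST1H4H, chr6:26285535-26285784, minus strand: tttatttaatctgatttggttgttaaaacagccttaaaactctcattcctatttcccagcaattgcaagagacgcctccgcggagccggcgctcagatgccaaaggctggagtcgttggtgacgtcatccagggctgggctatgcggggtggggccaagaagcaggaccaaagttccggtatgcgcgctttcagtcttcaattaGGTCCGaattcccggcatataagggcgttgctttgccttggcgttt

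TATAAA was present in 69.4% of the 62 member promoters and in 10.7% of all 35116 promoters of the table. ATTTGCA was found in 11 of 16 H2A and 13 of 16 H2B promoters, in no H1, H3 or H4 promoter, and in 3.67% of all promoters. CCAAT was held by every H1, H2A, H2B and H3 promoter matched, by 2 of 12 H4 promoters and by 32.0% of all promoters. GGTCCG was held by 11 of 12 H4 promoters and by 9.43% of all promoters. In the promoters printed, the TATAAA match nearest the start began at position -31 in HIST1H2AC, -27 in HIST1H2BK and -29 in HIST2H2AC, and HIST1H4H had no such match but had GGTCCG at -46. A match is a match of letters and not a measured binding site. HIST1H4I was among the members without a matched promoter.

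**Figure D1:**
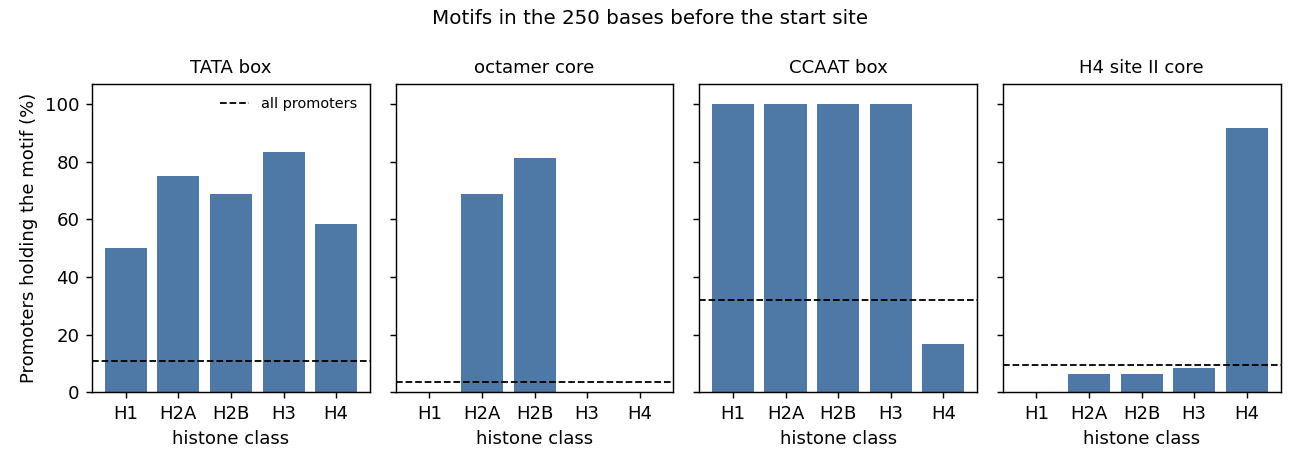
Share of promoters (%, y axis) that hold each of 4 motifs on either strand in the 250 bases before the start site, by histone class (x axis; 6 H1, 16 H2A, 16 H2B, 12 H3 and 12 H4 promoters), with the share among all 35116 promoters as a dashed line. The octamer core is seen in H2A and H2B promoters alone, at 68.8% and 81.3%, and the site II core reaches 91.7% in H4 promoters.

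Read support was thin. Whole reads were recovered from the deposited FPKM (fragments per kilobase of gene and per size of the library), and the libraries held between 16319640 and 18764546 reads. Of the 71 members, 24 had 0 reads in every library, 29 had reads but under 10 in every library, and 18 reached 10 reads in at least 1 library. A count of 0 allows up to 3 reads, which for a member of 393 bases is 0.406 to 0.481 FPKM. Over the 24 members at 0 this limit ranged from 0.0662 to 0.637 FPKM, so expression below it was not detectable at this depth. The 24 were 3 H1, 7 H2A, 5 H2B, 6 H3 and 3 H4 genes. These limits hold for counting error alone, because the reads carry no molecular identifiers and some may be copies of 1 molecule.

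Reads were concentrated in a few members. HIST1H2AC, HIST1H2BK and HIST1H1C together held 52.0% of all member reads. The 34 genes of the first HIST1 group, chr6:25726132-26285638, held 54.5% of member reads, and the 5 genes at chr6:27125897-27147515, among them HIST1H2BK and HIST1H4I, held 31.1%. The 16 genes at chr6:27807444-27893843 held 6.10%, most of it on HIST1H2BN. On chromosome 1, the 11 HIST2 genes at chr1:149782689-149887916 held 7.04%.

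**Figure D2:**
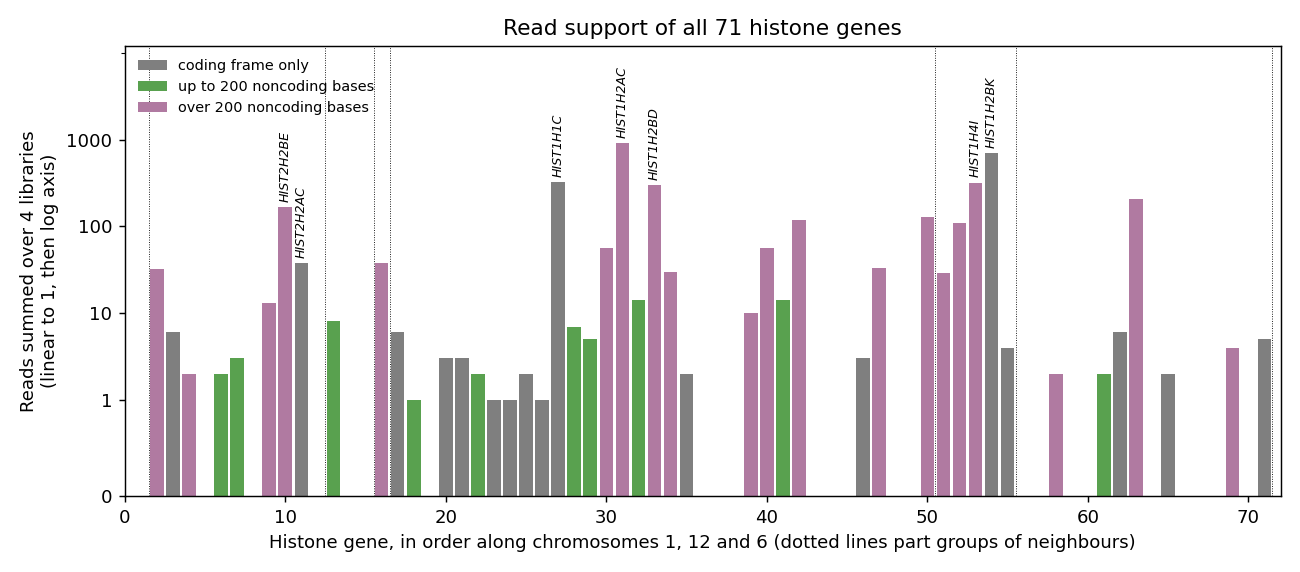
Reads summed over the 4 libraries (y axis, linear up to 1 and logarithmic above) for each of the 71 members in order along chromosomes 1, 12 and 6 (x axis, rank), coloured by how much noncoding sequence the gene model holds. The 7 members with a mean of at least 1 FPKM are named, and members at 0 show no bar.

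Near-identical copies and overlapping gene models limit what can be said of single members. In 10 members at least 90% of the 50-base windows of the transcript occur unchanged in a transcript of another gene, and in 6 more 50% to 90% do. In HIST1H2AD, HIST1H3D, HIST2H3PS2 and HIST1H2AM another gene model on the same strand covers 385, 411, 409 and 346 of the bases. There the overlapping model holds nearly all of the repeated windows. The same windows may lie in a further gene too, so these shares cannot tell whether a copy exists elsewhere. The pair HIST2H3A and HIST2H3C is identical over its whole annotated transcripts, and HIST2H2AA3 with HIST2H2AA4, HIST2H4A with HIST2H4B and HIST1H4J with HIST1H4K share nearly all or most of theirs. Of these 16 members, 8 had 0 reads in every library and 1, HIST1H2BK, reached 10 reads. Of the 50 members with under 10% repeated windows, 15 had 0 reads. How reads that fit several places, or that fall on overlapping genes, were treated was not given in the sources used here. A 0 in a duplicated or overlapped member therefore does not show that the gene is silent.

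Among the 7 members with a mean of at least 1 FPKM, 74.1% of the windows of HIST1H2BK and 30.5% of those of HIST2H2AC recur elsewhere, so both values are uncertain. The closest copies of HIST1H2BK are the 2 gene models named H2BFS on chromosome 21, which held 2 reads in 1 model in control replicate 1 and 0 otherwise. For HIST1H1C, HIST1H2AC, HIST1H4I, HIST1H2BD and HIST2H2BE the share of repeated windows was 0, 0.42%, 0.56%, 5.36% and 8.11%. Library strandedness was not given either, so reads of overlapping genes on opposite strands cannot be told apart. This touches HIST1H2BN, whose exons share 393 bases with HIST1H2AK, HIST1H2BE, which shares 730 bases with AL353759.1, and HIST2H2BF, which shares 177 bases with FCGR1A.

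The comparison of doxycycline with control used limma on log2(FPKM + 1), a scale that understates the change of low genes, with adjustment over all 12029 genes whose mean was at least 1 FPKM. No gene passed an adjusted p under 0.05 (0% of genes, and 0 of the 7 members tested). At an unadjusted p under 0.05, 5 of 7 members were higher against 6.47% of all genes, and 1 of 7 was lower against 11.9%. In 6 of 7 members both doxycycline libraries lay above both controls, against 24.3% of all genes, and in 1 both lay below, against 28.9%. HIST2H2BE averaged under 1 FPKM in the controls and HIST2H2AC under 1 FPKM with doxycycline, so each entered through the group where it was high. The other 5 exceeded 1 FPKM in every library. The median log2 difference was 1.01 over the 7 members and -0.03 over all genes. Values per library are given below in the order control replicates 1 and 2, then doxycycline replicates 1 and 2.

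Calls depended on the library and the settings. Limma-voom on reads called 0 members and 0 of 12029 genes with library totals, and 1 member, HIST1H2AC, among 121 genes with median-of-ratios library sizes. With the filter at 5 FPKM, which tests 6932 genes, limma called 2 members, HIST1H2AC and HIST1H2BK, among 261 genes. Without doxycycline replicate 1 it called 6 of 7 members among 3942 genes, without doxycycline replicate 2 it called 4 among 1605, and without either control it called 0. The remaining doxycycline library is then assumed to vary like the controls.

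**Figure D3:**
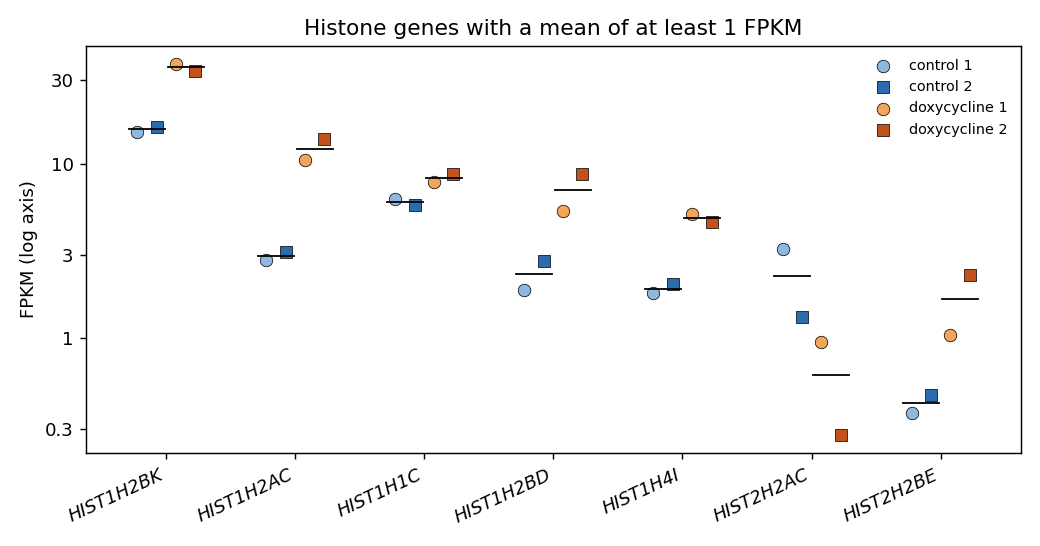
FPKM (logarithmic y axis) of the 7 members with a mean of at least 1 FPKM in each of the 4 libraries; bars are group means of 2 libraries. In 6 members both doxycycline points lie above both control points, and in HIST2H2AC both lie below.

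Of the H1 genes, HIST1H1C (ENSG00000187837, chr6:26055787-26056428, minus strand, 1 exon) was the only 1 of 6 to reach 10 reads. It stood at 6.28, 5.81, 7.87 and 8.68 FPKM on 64, 65, 95 and 102 reads. Both doxycycline values were above both controls, by a log2 difference of 0.40 (SE 0.17, limma adjusted p = 0.296). Of the other linker histone genes, HIST1H1E and HIST1H1T had a few reads and HIST1H1A, HIST1H1B and HIST1H1D had 0 in every library.

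Among H2A genes, HIST1H2AC (ENSG00000180573, chr6:26124145-26139116, plus strand, up to 2 exons) held the most reads of all 71 members, at 74, 91, 328 and 422 reads. Its levels were 2.80, 3.13, 10.5 and 13.8 FPKM, so the doxycycline libraries lay well apart from the controls. The ratio of group means was 4.09, and the log2 difference was 1.72 (SE 0.20, limma adjusted p = 0.0573). Other genes of the fit shared that adjusted p, among them MCM5, GINS2 and UHRF1.

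HIST2H2AC (ENSG00000184260, chr1:149886975-149887364, plus strand, 1 exon) went the other way. It stood at 3.23, 1.33, 0.95 and 0.28 FPKM, which are 20, 9, 7 and 2 reads. The controls differed from each other more than control replicate 2 did from doxycycline replicate 1. The log2 difference was -0.99 (SE 0.37, limma adjusted p = 0.245). HIST1H2AG, the remaining H2A gene with support, had 22, 38, 20 and 30 reads and its groups overlapped.

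H2B genes were the best covered class, with 10 of 18 at 10 reads or more and 43.3% of member reads. HIST1H2BK (ENSG00000197903, chr6:27146418-27146798, minus strand, 1 exon) had the highest level per length of any member. It stood at 15.2, 16.3, 37.0 and 34.1 FPKM on 92, 108, 265 and 238 reads. The gap between groups was many times the gap within them, with a log2 difference of 1.13 (SE 0.19, limma adjusted p = 0.0696).

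HIST1H2BD (ENSG00000158373, chr6:26158146-26171349, plus strand) stood at 1.88, 2.77, 5.37 and 8.78 FPKM on 26, 42, 88 and 140 reads. Its log2 difference was 1.26 (SE 0.27, limma adjusted p = 0.0993), with doxycycline replicate 2 the higher of its pair. HIST2H2BE (ENSG00000184678, chr1:149884459-149886652, minus strand) stood at 0.37, 0.47, 1.04 and 2.31 FPKM on 13, 18, 43 and 93 reads. Its doxycycline replicates differed from each other by more than its controls did, and the log2 difference was 0.87 (SE 0.30, limma adjusted p = 0.218).

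The other 7 H2B genes with support averaged under 1 FPKM over the 4 libraries. HIST1H2BN had 21, 36, 62 and 88 reads, HIST1H2BJ had 5, 3, 9 and 12, and HIST2H2BF had 3, 5, 11 and 13. In these 3 genes both doxycycline libraries lay above both controls in FPKM. HIST1H2BC had 10, 11, 12 and 24 reads, with the controls at 0.756 and 0.757 FPKM and the doxycycline libraries at 0.765 and 1.57, so both lay above but replicate 1 only narrowly. The groups overlapped in HIST1H2BE (7, 4, 4 and 15 reads), HIST1H2BG (16, 11, 17 and 13) and HIST1H2BH (7, 7, 5 and 14).

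Of 15 H3 genes, HIST1H3E alone reached 10 reads. It had 19, 14, 42 and 44 reads, or 0.447, 0.30, 0.834 and 0.897 FPKM. The doxycycline libraries were close to each other and above both controls.

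Of 15 H4 genes, HIST1H4I (ENSG00000276180, chr6:27138588-27139881, plus strand) was the best covered. It stood at 1.80, 2.04, 5.14 and 4.64 FPKM on 37, 46, 125 and 110 reads. The spread within each group was small beside the gap, and the log2 difference was 1.01 (SE 0.18, limma adjusted p = 0.0719). HIST1H4H had 21, 18, 37 and 52 reads, again with both doxycycline libraries above both controls, while HIST4H4 had 3, 13, 12 and 10 and overlapped. HIST2H4B, a near copy of HIST2H4A, had 0, 0, 8 and 5 reads, below the support asked for.

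**Figure D4:**
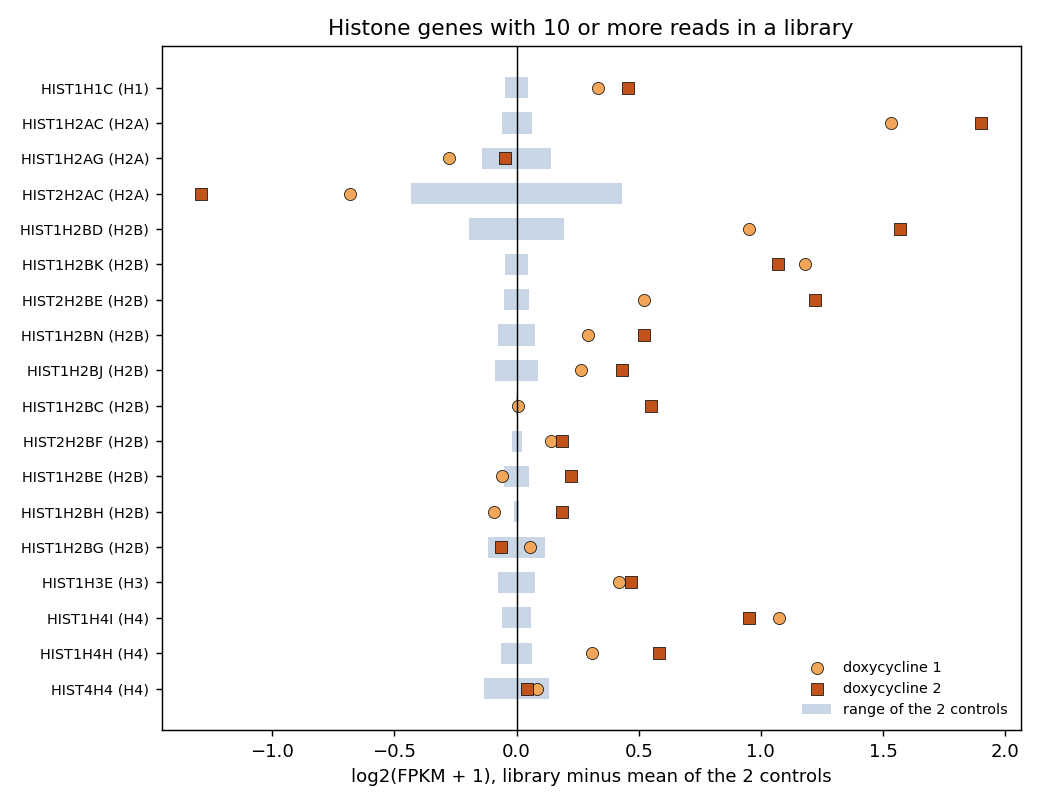
Difference on the log2(FPKM + 1) scale between each doxycycline library and the mean of the 2 controls (x axis) for the 18 members with at least 10 reads in a library (y axis, grouped by histone class); the shaded bar spans the 2 controls. Both doxycycline points lie above the controls' range in 12 members, below it in HIST2H2AC, and overlap it in 5.

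Counted over the 18 members, 12 had both doxycycline libraries above both controls, against 25.6% of the 16564 genes with 10 reads in a library. HIST2H2AC was the 1 member below, against 25.8% of genes. HIST2H2BF, HIST1H2BJ, HIST1H2BE and HIST1H2BH reached 10 reads in a doxycycline library only, and HIST2H2AC in a control only, so their place among the 18 depended on the group where they were high. When limma was fitted on the 14943 genes with a mean of at least 10 reads, 12 members entered. None passed (0% of genes), and at an unadjusted p under 0.05 8 of 12 were higher against 6.99% of genes and 0 were lower against 11%. Both doxycycline libraries lay above both controls in 10 of these 12, against 25.5% of genes, and below them in 0, against 26.9%. HIST1H3E had a log2 difference of 0.44 (SE 0.13, adjusted p = 0.171) there, HIST1H4H 0.45 (SE 0.16, adjusted p = 0.223) and HIST1H2BN 0.41 (SE 0.14, adjusted p = 0.211). HIST1H2BC stood at 0.28 (SE 0.21, adjusted p = 0.5), HIST1H2AG at -0.16 (SE 0.16, adjusted p = 0.621) and HIST1H2BG at -0.005 (SE 0.14, adjusted p = 0.989). The median of the 12 was 0.44.

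The 71 members held 488, 569, 1217 and 1463 reads, or 29.9, 33.0, 69.6 and 78.0 RPM (reads per 1000000 reads of the library). The means were 31.4 ± 2.19 and 73.8 ± 5.91 RPM (SD, n = 2 each), a ratio of 2.35. An exact two-sided permutation test gave p = 0.333, the smallest that 2 against 2 libraries allow. Without HIST1H2AC the values were 25.4, 27.7, 50.9 and 55.5 RPM, so the separation did not rest on that gene. In bulk RNA, more cells with these transcripts and more transcript per cell cannot be told apart.

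By class, the summed FPKM went from 21.2 ± 1.30 to 48.2 ± 2.31 in H2B, from 6.97 ± 0.92 to 14.4 ± 2.02 in H2A and from 3.89 ± 0.97 to 7.14 ± 0.12 in H4 (SD, n = 2 each). In H1 it went from 6.29 ± 0.35 to 8.75 ± 0.73. The H2A ratio of 2.07 rested on HIST1H2AC, since without it the ratio was 0.565. The H4 rise rested on HIST1H4I, since the summed FPKM of the other H4 genes overlapped between the groups. In H3 the sums of 1.48, 1.05, 1.06 and 2.20 FPKM overlapped, and the ratio of 1.29 became 0.834 without doxycycline replicate 2. The 53 members under 10 reads summed to 3.31, 4.09, 2.70 and 4.06 FPKM, where the groups overlapped. In reads they held 28, 30, 35 and 41, or 1.72, 1.74, 2.00 and 2.19 RPM, where both doxycycline libraries lay above both controls.

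Several H2A and H2B genes lie head to head. Among the 62 members with a matched promoter, 10 such pairs had start sites within 500 bases of each other. Members without a matched promoter were not searched, so 10 is not a full count. HIST1H2AH is such a member, and its model lies head to head with that of HIST1H2BK. HIST2H2BE and HIST2H2AC start 236 bases apart, and the HIST2H2AC promoter printed above spans that whole interval, with a TATAAA match facing each gene. The HIST2H2BE share of the pair's reads was 39.4% (95% interval 22.9% to 57.9%) and 66.7% (46.0% to 83.5%) in the controls. With doxycycline it was 86.0% (73.3% to 94.2%) and 97.9% (92.6% to 99.7%). The ranges are exact Clopper-Pearson intervals for counting error, and that of control replicate 2 overlapped that of doxycycline replicate 1. The shares compare a model of 2194 bases with 1 of 390 bases, so their level follows the model lengths as well.

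HIST1H2BC and HIST1H2AC start 246 bases apart, and there both genes had more reads with doxycycline. The HIST1H2AC share was 88.1% (79.2% to 94.1%), 89.2% (81.5% to 94.5%), 96.5% (93.9% to 98.2%) and 94.6% (92.1% to 96.5%). Of the pair HIST1H2BJ and HIST1H2AG, 248 bases apart, HIST1H2BJ lay above the controls in both doxycycline libraries and HIST1H2AG overlapped. In HIST1H2BG and HIST1H2AE, 233 bases apart, HIST1H2BG had 73.3% to 86.7% of the pair's reads and its share overlapped between groups. The other 6 pairs had at most 6 reads in a library.

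Annotated model length went with read support. A longer model gathers more reads at equal FPKM, and how much of the pattern this made up was not tested. In 33 members the model is the coding frame alone, in 12 it has up to 200 noncoding bases besides, and in 26 it has more. Of these, 3, 0 and 15 reached 10 reads in a library. The 26 long models held 68.7% of member reads and summed to 11.5, 12.6, 27.8 and 37.5 FPKM, a ratio of 2.71. The 33 coding models summed to 26.7, 26.0, 46.7 and 44.6 FPKM, a ratio of 1.73. That rise rested on HIST1H2BK, since the summed FPKM of the other coding models overlapped between the groups.

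Of 11 members known to give polyadenylated transcripts, 10 reached 10 reads and 1, HIST3H2A, had 0. These 11 held 69.5% of member reads and summed to 31.1, 31.1, 64.3 and 70.8 FPKM, a ratio of 2.17. Of the other 60 members 8 reached 10 reads, and the sums were 7.96, 8.95, 11.6 and 13.6 FPKM, a ratio of 1.49. HIST1H4I is among these 60, and without it their summed FPKM overlapped between the groups. The list is background knowledge, and 3 of its genes were known to stand out in these data when it was written. How RNA was selected for the libraries was not given. Of 16 RNAs without a poly(A) tail, some too short for most libraries, 11 had 0 reads in every library, and RN7SL2 stood at 57.4, 49.2, 22.5 and 26.8 FPKM. The part of RNA selection in the members' values was not tested.

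Genes around histone supply were read beside the members from lists chosen with earlier results of these data known. The lists' counts are set beside 24.3% of all tested genes above both controls and 28.9% below. Given how the lists were chosen, this is not an independent comparison. All 20 S phase genes listed lay lower in both doxycycline libraries, with a median log2 difference of -1.42 and 0 past the adjusted threshold in limma. MCM5, part of the replicative helicase, stood at 23.5, 21.7, 6.39 and 4.63 FPKM, and UHRF1 and GINS2 were the other genes among the 3 lowest p-values. The part of cell cycle state in the members' values was not tested.

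Replacement histones, which are made outside S phase as well and usually carry poly(A) tails, had 10 of 12 genes tested. Both doxycycline libraries lay below both controls in 8, against 28.9% of all genes, and 2 overlapped. H2AFX, the variant phosphorylated at DNA breaks, stood at 80.6, 66.2, 22.7 and 13.1 FPKM. H2AFZ stood at 171, 127, 54.4 and 59.8 FPKM and CENPA, the centromeric H3, at 13.5, 12.8, 4.37 and 4.32. The list's median log2 difference was -0.45.

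Of 10 genes listed under histone gene transcription 5 lay below, against 28.9% of all genes, and 5 overlapped, with a median of -0.16. The 5 below include YARS2, which has no known part in histone gene transcription. The counts and the median therefore describe the list as drawn up, and not histone gene transcription alone. CDK2, whose complex with cyclin E activates the histone locus factor NPAT, stood at 15.9, 13.9, 8.17 and 7.71 FPKM, and CCNE1 and CCNE2 also lay below. NPAT itself overlapped, at 1.86, 2.16, 1.64 and 2.13 FPKM. HINFP and GON4L, the highest 2 by difference in the list, overlapped as well.

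Of 14 genes of 3′ end processing, 9 lay below, against 28.9% of all genes, and 5 overlapped, with a median of -0.30. SLBP, the stem-loop binding protein, stood at 63.9, 49.8, 40.5 and 36.0 FPKM (limma adjusted p = 0.279). SRRT, CPSF1 and CSTF2 had the lowest p-values among those with a lower mean. ZNF473, CPSF2 and NCBP2 had the lowest among those with a higher mean, and all 3 overlapped.

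Translation and decay of histone messages had 16 genes tested, of which 4 lay above, near the 24.3% of all genes, 9 lay below, against 28.9%, and 3 overlapped. The median was -0.28. MIF4GD, a partner of SLBP in translation, stood at 10.3, 10.2, 15.1 and 13.9 FPKM (limma adjusted p = 0.259). TUT7, which adds uridines to histone messages during decay, stood at 3.67, 4.69, 6.17 and 8.23 FPKM, and XRN1, an exonuclease, came next. LSM6, LSM7 and UPF1 led those lower. In none of these lists did a gene pass the adjusted threshold.

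**Figure D5:**
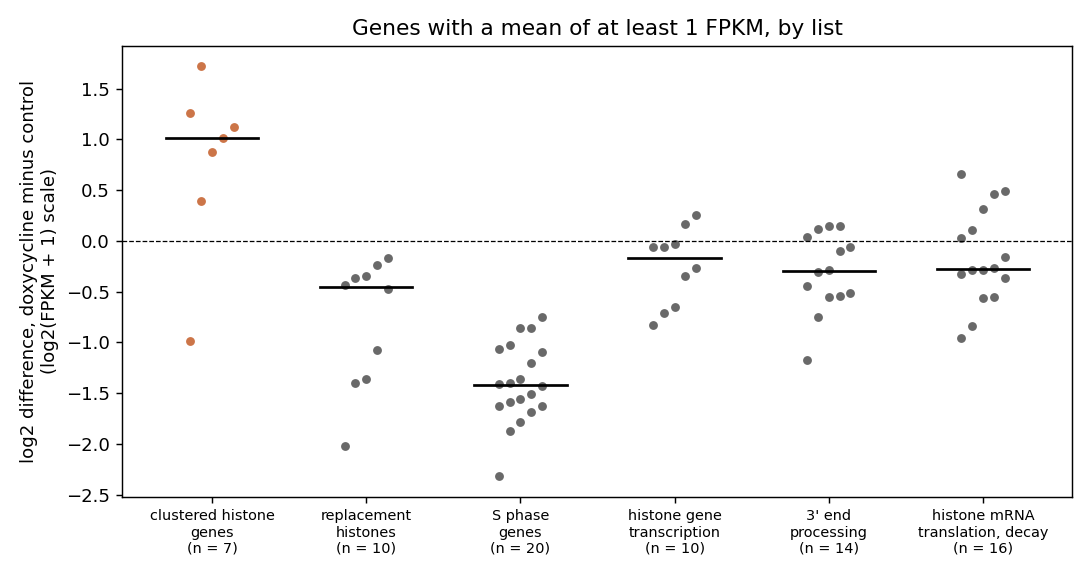
Difference between doxycycline and control (y axis, log2(FPKM + 1) scale) of each gene with a mean of at least 1 FPKM. The x axis holds the clustered histone genes and 5 lists chosen with earlier results of these data known. Points are genes and bars are medians. The histone median is 1.01 with HIST2H2AC at -0.99, and the S phase median is -1.42.

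USP35, the hairpin's target, stood at 3.31, 4.19, 2.11 and 2.54 FPKM, below both controls in both doxycycline libraries but short of the threshold (log2 difference -0.51, SE 0.20, limma adjusted p = 0.256). The mitochondrial genome took 14.6% of reads in doxycycline replicate 2 and 7.44% to 8.50% in the others. With mitochondrial reads left out of the total, the members still stood at 32.6, 36.1, 75.2 and 91.3 RPM. Of 10 renal and clear cell carcinoma markers 7 were tested, among them PAX8 at 38.5 to 53.9 FPKM. LHX1 stood at 25.6, 27.3, 6.48 and 5.26 FPKM and AQP1 at 0.752, 1.137, 1.146 and 3.004, and neither passed the adjusted threshold. CA9 and NDUFA4L2, hypoxia response markers of clear cell carcinoma, were at or near 0 with at most 4 reads. Summed over all 10, these markers stood at 622, 513, 448 and 443 FPKM, of which VIM gave 502, 380, 351 and 328. The part of these markers in the members' values was not tested. Leukocyte markers (5) summed to at most 0.0678 FPKM, endothelial markers (4) to at most 0.00512 and fibroblast markers (5) to 0.687, 0.637, 0.210 and 0.125, mostly COL1A1. CD3E, LYZ, PECAM1, CDH5, KDR and LUM were at 0 in every library.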

How the data were processed

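RNA of 2 control and 2 doxycycline libraries was analysed, with groups and replicate numbers taken from the labels. Per the file headers, the deposited values are FPKM. The submitters' processing notes list HISAT2 2.0.5, featureCounts 1.5.0-p3 and limma without saying what each was used for. Genome build, strandedness, RNA selection and the treatment of reads with several matches are not given in the sources used here. All 58735 gene models were identical to GENCODE 29 (GRCh38). FPKM multiplied by gene length was a whole number of a library's smallest step, within 0.02 reads, for 100.0% of values, which gave whole reads and depth (16319640 and 17244546 in the controls, 17481827 and 18764546 with doxycycline).

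The test was limma-trend (limma 3.58.1, R 4.3.3), two-sided, on log2(FPKM + 1) for genes averaging at least 1 FPKM, with 2 residual degrees of freedom and Benjamini-Hochberg adjustment. The fit and the read recovery were tested on simulated data. Tables were handled with Python 3.11.15 and pandas 2.3.3. Neighbouring members over 500 kb apart were put in separate groups. RefSeq promoters were used where their start lay within 500 bases of the model's.

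Every member with a mean of at least 1 FPKM, or at least 10 reads in a library, was named, with the 3 genes of lowest p in each direction of each list. NPAT and SLBP were named after their values were seen. The members and lists were chosen with earlier results of these data known, and the length classes of gene models were set after the values were seen. Alternatives covered filters, pseudocounts, scaling, limma-voom on reads, a replicate block and leaving out each library.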

Additional observations from a re-analysis of the deposited data

How the results depend on the processing

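Under 16 alternatives the log2 differences of HIST1H2AC (1.53 to 2.06), HIST1H2BK (1.07 to 1.24), HIST1H4I (0.95 to 1.38), HIST1H2BD (0.95 to 1.62), HIST2H2BE (0.52 to 1.91), HIST1H1C (0.33 to 0.50) and HIST2H2AC (-1.80 to -0.56) kept their signs wherever they were tested. Their adjusted p ran from 2.96e-05 to 0.685 in HIST1H2AC and from 0.0618 to 0.962 in HIST1H1C. HIST1H2BG moved from -0.005 to 0.047 with limma-voom at a mean of at least 10 reads, an alternative chosen after seeing the data; the cause was not tested. Members past the threshold numbered 2 (of 261 genes) with a filter at 5 FPKM, where fewer genes were tested, and 1 (of 121 genes) with limma-voom and median-of-ratios sizes, for which the cause was not tested. Leaving out 1 library gave 0 to 6 members and 0 to 3942 genes, with fewer samples in the fit. The replicate block called 5 members, 4 higher and 1 lower, among 784 genes. Libraries with the same number share only that number: deviations correlated at 0.207 in both pairs, which are equal by construction with 2 pairs. The H2A sum ratio was 0.565 without HIST1H2AC and the H3 ratio ran from 0.834 to 1.74 over the libraries left out. The H4 ratio ran from 1.56 to 2.23, with HIST1H4I kept in every setting. The members' share of reads kept a ratio of 2.00 to 2.48 in its 7 alternatives, of which 2.42 without HIST1H2BK and HIST2H2AC was added after seeing the data. Scaling moved the median of all genes by at most 0.08. With 2 libraries a group, and 53 of 71 members under 10 reads, differences in most members were not detectable at this depth.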

Other observations

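Of 19 histone pseudogenes of the same naming, which the rule left out, 13 had 0 reads in every library. The chromosome 1 pseudogene HIST2H2BC (chr1:149844498-149850937, minus strand) had 63, 82, 80 and 176 reads in control replicates 1 and 2 and doxycycline replicates 1 and 2, or 0.617, 0.731, 0.661 and 1.49 FPKM. HIST2H2BD, which overlaps it on the other strand, had 32, 26, 29 and 51 reads. In both, the groups overlapped. Both had more reads in every library than most protein-coding members.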
